A study of Homo sapiens with 4 samples.

Results

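The enzymes and transporters of glycolysis and the pentose phosphate pathway were followed across mRNA-sequencing libraries of KBM5 cells, a line grown from a patient with chronic myeloid leukemia in blast crisis that carries the BCR-ABL fusion kinase. The set is a fixed list of 34 gene symbols, all of them found among the 50868 genes of the deposited table. It holds glucose and lactate transporters, the enzymes from hexokinase to lactate dehydrogenase, the kinases that set fructose 2,6-bisphosphate and pyruvate dehydrogenase activity, and 6 pentose phosphate enzymes. The 4 libraries are cells given IM and DSF together (IM-DSF), cells given DSF, cells given IM, and untreated cells (CTR), with 1 library per group. All 4 are the same cell line, and its tissue is labelled blood. The labels do not spell out IM and DSF, which are read here as imatinib, an inhibitor of the BCR-ABL kinase, and disulfiram. They give no dose and no time of treatment. The series title places the work in the joint inhibition of GPX4, an enzyme that repairs lipid peroxides, and of the BCR-ABL kinase in leukemia stem cells.

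Glycolysis splits glucose into pyruvate and yields ATP and NADH, and lactate dehydrogenase reoxidises the NADH while turning pyruvate into lactate. The pentose phosphate pathway branches off at glucose 6-phosphate, and its oxidative arm makes NADPH, which keeps glutathione reduced, while its other arm makes ribose for nucleotides. BCR-ABL signalling is known to raise glucose uptake and glycolysis in leukemia cells, and imatinib is known to lower them.

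The values are FPKM, fragments per kilobase of gene and scaled to library depth, with denominators of 12443255 fragments in IM-DSF, 14704466 in DSF, 15810648 in IM and 14506545 in CTR. The number of genes that reached 1 FPKM was 11238 in IM-DSF, the highest, and 10677 in CTR, the lowest. All 9 myeloid marker genes were detected, and their summed level was 2567 FPKM in IM-DSF, 2028 in DSF, 2594 in IM and 1496 in CTR. Megakaryocyte and B cell markers stayed under 1 FPKM in every library, and of the erythroid and of the T and NK cell markers only TFRC and NKG7 reached it. CD34 and KIT, which mark hematopoietic stem and progenitor cells, were listed at 0 in each treated library, and CTR had 0.00554 FPKM of CD34 and none of KIT. There were no replicates. Every difference is therefore between 2 libraries and has no p-value. Folds of the members and ratios of isozymes have a 95% interval for counting error only, which copies made by PCR render too narrow. Medians, departures from additivity and the genes of further lists have no interval.

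Most members were somewhat lower in treated cells, and few were far lower. Differences were taken as log2(FPKM + 1) for the 11004 genes that averaged 1 FPKM or more, a level that 26 of the 34 members reached. With IM-DSF, 22 of 26 members were below CTR, with a median of -0.32, against a median of 0.02 and 47.9% of genes below CTR across all genes tested. With IM, again 22 of 26 were below CTR and the median was -0.26, against 0.02 and 46.9% for all genes. With DSF, 19 of 26 were below CTR and the median was -0.10, against a median of 0.00 and 5500 of the 11004 genes. These 3 comparisons share the CTR library. The remaining 8 members, SLC2A3, HK1, HK3, PFKM, PFKFB2, PFKFB4, ENO2 and PDK2, did not reach the filter and enter none of these counts.

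Abundant genes were also lower as a class. Among the 1528 genes that averaged 20 FPKM or more, the median was -0.19 with IM-DSF, -0.10 with IM and -0.04 with DSF, all relative to CTR. The 15 members in that range had medians of -0.46, -0.34 and -0.14 in the same order. All 15 were below CTR with IM-DSF, where 66.6% of the abundant genes were. All 15 were also below CTR with IM, against 60.9% of the abundant genes, and 13 of 15 with DSF, against 61.5%. Together the 34 members held 1.05% of the fragments in IM-DSF, 1.26% in DSF, 1.10% in IM and 1.42% in CTR. In such bulk samples fewer cells of a type and less RNA per cell cannot be told apart. The summed level of the myeloid markers was higher in all 3 treated libraries, though CD33 was below CTR in IM-DSF and DSF, SPI1 in IM-DSF and PTPRC in DSF. The part of these markers in the results was not tested.

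**Figure D1:**
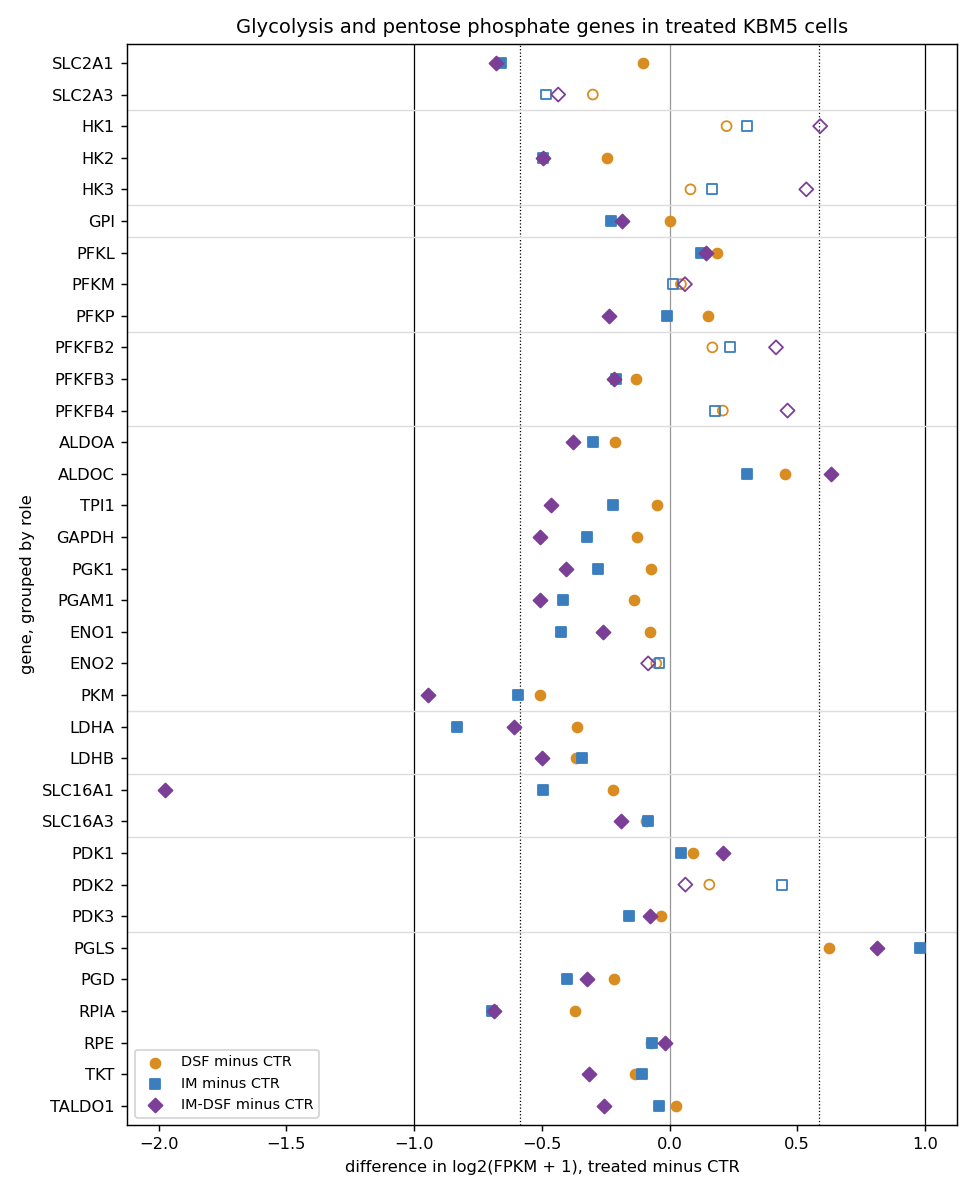
Difference in log2(FPKM + 1) between each treated library and CTR for the 34 members, grouped by role, with DSF, IM and IM-DSF as separate markers. Filled markers are the 26 members that averaged 1 FPKM or more, open markers the other 8, dotted lines the 1.5-fold rule and solid lines the 2-fold rule; SLC16A1 in IM-DSF lies farthest out, at -1.97, and PGLS lies to the right in all 3 libraries.

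Few members passed 2-fold, and more passed 1.5-fold. A gene was called at 2-fold when its log2(FPKM + 1) difference reached 1, and at 1.5-fold when it reached 0.58. In IM-DSF against CTR, 1 of 26 members passed 2-fold, SLC16A1, which was lower, against 4.28% of all genes in either direction. At 1.5-fold, 2 members were higher (PGLS and ALDOC), where 8.96% of all genes were, and 5 were lower (SLC16A1, PKM, RPIA, SLC2A1 and LDHA), where 7.31% of all genes were. With trimmed-mean scaling 1 member was higher and 9 were lower, since GAPDH, HK2, LDHB and PGAM1 were added and ALDOC was lost. With median-of-ratios scaling 1 was higher and 7 were lower, GAPDH and PGAM1 being added and ALDOC again lost. In IM against CTR, no member passed 2-fold, with 2.43% of all genes passing. At 1.5-fold, PGLS was higher against 6.61% of all genes, and LDHA, RPIA, SLC2A1 and PKM were lower against 3.69%. In DSF against CTR, no member passed 2-fold and 1 passed 1.5-fold, PGLS, which was higher. The shares over all genes there were 1.12% at 2-fold, 2.46% higher at 1.5-fold and 2.07% lower at 1.5-fold. At 1.5-fold in IM-DSF against CTR, 79 of the 1528 genes that averaged 20 FPKM or more were higher and 231 lower. Of the 15 such members, 0 were higher and 3 lower. In IM against CTR, 62 such genes were higher and 82 lower, with 0 and 3 such members. In DSF against CTR, 22 were higher and 16 lower, with 0 and 0 such members.

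By the size rules the combination differed from each single drug in 1 member, again SLC16A1. It was the only member past 2-fold in IM-DSF against IM, where 1.74% of all genes passed, and none was higher at 1.5-fold (2.33% of all genes), while SLC16A1 alone was lower (3.62%). In IM-DSF against DSF, SLC16A1 was likewise alone past 2-fold, against 2.37% of all genes. At 1.5-fold no member was higher there (5.43% of all genes) and SLC16A1 was lower (4.66%). The medians of the 26 members were -0.05 against IM and -0.19 against DSF, with medians over all genes of -0.00 and 0.01. In IM-DSF, 22 of 26 members were lower than in DSF, against 48.3% of all genes. Against IM, 16 of 26 were lower, against 50.3%. All 15 members that averaged 20 FPKM or more were lower than in DSF, where 66.7% of such genes were. Against IM, 10 of these 15 were lower, where 65.1% of such genes were.

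Promoter sequence was at hand for 31 of the 34 members, in 59 RefSeq windows (GRCh38.p14) that run from 250 bases before to 50 bases after a start site. None was at hand for SLC16A1, SLC2A3 and PFKFB2, whose promoters were therefore not searched. The windows were searched on both strands for 4 short motifs. CACGTG, the E-box that basic helix-loop-helix leucine zipper factors bind, was in the windows of 7 members, in 11.9% of member windows and in 7.26% of all 35116 windows. ACGTG, the core of the hypoxia response element, which CACGTG contains, was found for 17 members, in 35.6% of member windows and 21.4% of all windows. TGACNNNGC, from the antioxidant response element, was found for 7 members, in 11.9% and 13.3% of windows. TTCNNNGAA, the core of STAT5 sites, was found for 3 members, in 5.08% and 7.66%. A match is a run of letters and was not tested as a binding site.

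The stretches around the E-box matches are printed because the 7 genes that hold them lay on different sides of CTR. HK2, GAPDH, ALDOA, LDHA and PFKFB3 were lower in IM and in IM-DSF than in CTR, and ALDOC was higher in both. PDK2, under the filter, was 1.84-fold (1.46 to 2.33) in IM and 1.10-fold (0.838 to 1.45) in IM-DSF, where the interval includes 1. Among these 7 only LDHA and ALDOC passed 1.5-fold on the log2(FPKM + 1) scale. Each is given 5′ to 3′ on the gene's strand, upstream of the start site of its own window, with the motif in capitals. A gene can have several start sites, so a stretch can lie inside the gene. The PFKFB3 stretch does, as the gene runs from 6144934 to 6235545.
LDHA, chr11:18394348-18394413 (+): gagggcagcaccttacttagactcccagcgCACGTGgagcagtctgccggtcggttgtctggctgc
LDHA, chr11:18394446-18394511 (+): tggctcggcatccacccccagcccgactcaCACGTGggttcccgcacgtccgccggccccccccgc
HK2, chr2:74834946-74835011 (+): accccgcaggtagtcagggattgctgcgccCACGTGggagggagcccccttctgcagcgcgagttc
HK2, chr2:74834991-74835056 (+): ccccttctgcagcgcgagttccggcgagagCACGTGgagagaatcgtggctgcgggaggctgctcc
GAPDH, chr12:6535153-6535218 (+): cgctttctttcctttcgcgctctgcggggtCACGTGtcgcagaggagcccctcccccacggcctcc
ALDOA, chr16:30064355-30064420 (+): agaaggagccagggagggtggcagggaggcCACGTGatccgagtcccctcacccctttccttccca
PFKFB3, chr10:6202794-6202859 (+): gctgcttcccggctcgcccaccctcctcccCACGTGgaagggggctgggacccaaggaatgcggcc
ALDOC, chr17:28577100-28577145 (-): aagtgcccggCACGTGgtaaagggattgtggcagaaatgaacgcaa
PDK2, chr17:50095192-50095257 (+): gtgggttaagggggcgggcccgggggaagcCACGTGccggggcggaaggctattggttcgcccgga

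All 3 members with a match to the STAT5 core are shown because STAT5 acts downstream of BCR-ABL. Against CTR, RPIA was 0.611-fold (0.564 to 0.662) with IM. HK1 was 1.94-fold (1.34 to 2.86) with IM but under the filter. PDK1 was 1.04-fold (0.946 to 1.15) with IM, where the interval includes 1. The part of STAT5 in these differences was not tested. The HK1 stretch lies inside the gene, which runs from 69269984 to 69401882.
RPIA, chr2:88691536-88691604 (+): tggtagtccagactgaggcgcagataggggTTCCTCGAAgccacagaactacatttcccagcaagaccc
HK1, chr10:69334521-69334589 (+): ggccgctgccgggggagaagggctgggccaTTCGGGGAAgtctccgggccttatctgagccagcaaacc
PDK1, chr2:172555182-172555250 (+): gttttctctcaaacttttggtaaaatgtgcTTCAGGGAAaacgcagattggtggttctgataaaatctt

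Glucose enters blood cells mainly through SLC2A1, the transporter GLUT1 (ENSG00000117394; GRCh38.p14 chromosome 1, 42925375 to 42959173, minus strand). Its level was 3.03 FPKM in IM-DSF, 5.01 in DSF, 3.08 in IM and 5.45 in CTR. Both libraries with IM were low, and the DSF library was near CTR. The fold against CTR was 0.556 (95% interval 0.486 to 0.635) with IM-DSF, 0.565 (0.500 to 0.639) with IM and 0.919 (0.824 to 1.03) with DSF. SLC2A3, the high-affinity transporter GLUT3, was rare, with 26 fragments in IM-DSF, 53 in DSF, 25 in IM and 109 in CTR. Its fold against CTR was 0.278 (0.174 to 0.430) with IM-DSF, 0.480 (0.339 to 0.672) with DSF and 0.210 (0.131 to 0.327) with IM. Each interval lay below 1, but the gene was under the filter. Its 3 pseudogenes summed to 0.386 FPKM in IM-DSF, 0.420 in DSF, 0.346 in IM and 0.425 in CTR.

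Hexokinase, which traps glucose in the cell as glucose 6-phosphate, was almost all HK2. HK2 had 19.6 FPKM in IM-DSF, 23.5 in DSF, 19.6 in IM and 28.1 in CTR, so all 3 treated libraries were lower and both libraries with IM were alike. Its fold was 0.699 (0.656 to 0.745) with IM-DSF, 0.839 (0.792 to 0.888) with DSF and 0.699 (0.659 to 0.742) with IM, none past 1.5-fold on the log2(FPKM + 1) scale. HK1, the isozyme of most resting tissues (ENSG00000156515; chromosome 10, 69269984 to 69401882, plus strand), had 1.001 FPKM in IM-DSF, 0.552 in DSF, 0.640 in IM and 0.330 in CTR. It rested on 112, 73, 91 and 43 fragments in the same order, and the treated libraries were all higher. The HK1 fold in IM-DSF against CTR was 3.04 (2.12 to 4.42). HK3, an isozyme of myeloid cells, was listed at 0 in CTR and had 26 fragments in IM-DSF, 4 in DSF and 9 in IM. The HK3 fold in IM-DSF against IM was 3.67 (1.67 to 8.90), at a level of 0.449 FPKM in IM-DSF.

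No member of the next steps passed 1.5-fold. GPI, which turns glucose 6-phosphate into fructose 6-phosphate, was between 23.2 FPKM (IM) and 27.4 (CTR). Phosphofructokinase, the committed step, was mostly PFKL, with 11.5 FPKM in IM-DSF, 11.9 in DSF, 11.3 in IM and 10.3 in CTR. PFKL was thus slightly above CTR in each treated library, at most 1.15-fold (1.09 to 1.22, DSF). PFKP, the platelet-type subunit, had a fold of 0.823 (0.726 to 0.933) in IM-DSF and 1.13 (1.01 to 1.26) in DSF against CTR. PFKM, the muscle-type subunit, had at most 39 fragments in a library. SENP1 lies on its opposite strand at 5.33 to 6.33 FPKM.

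The bifunctional PFKFB enzymes make and break fructose 2,6-bisphosphate, the activator of phosphofructokinase. PFKFB3, the form with the strongest kinase activity, was the most abundant, with 1.75 FPKM in IM-DSF, 1.92 in DSF, 1.76 in IM and 2.20 in CTR. PFKFB2 and PFKFB4 were under the filter and ran the other way. PFKFB2 had 0.828 FPKM in IM-DSF, 0.538 in DSF, 0.615 in IM and 0.369 in CTR, a fold of 2.24 (1.65 to 3.07) in IM-DSF against CTR. PFKFB4 had 1.31, 0.934, 0.894 and 0.674 FPKM in the same order, a fold of 1.94 (1.44 to 2.62). Both were highest in IM-DSF and lowest in CTR. The antisense gene YOD1 overlaps PFKFB2 and was at 5.20 FPKM in IM-DSF and 6.14 in CTR.

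Lower glycolysis, from aldolase to pyruvate kinase, held the most abundant members. ENO1, the main enolase, had 434 FPKM in IM-DSF, 493 in DSF, 387 in IM and 520 in CTR. GAPDH, which makes the NADH of the pathway, had 309 FPKM in IM-DSF, 402 in DSF, 352 in IM and 440 in CTR. Both were lower in every treated library, but ENO1 was lowest in IM and GAPDH in IM-DSF. ALDOA, which splits fructose 1,6-bisphosphate, TPI1, which interconverts the triose phosphates, PGK1, the first ATP-making step, and PGAM1, the mutase, followed the same course as GAPDH. Their folds against CTR lay between 0.698 and 0.762 with IM-DSF, between 0.745 and 0.855 with IM, and between 0.857 and 0.966 with DSF. None of these 6 genes passed 1.5-fold as deposited.

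PKM, pyruvate kinase, the final ATP-making step (ENSG00000067225; chromosome 15, 72199029 to 72231822, minus strand), fell the most of this group. It had 33.1 FPKM in IM-DSF, 45.2 in DSF, 42.5 in IM and 64.6 in CTR, so each drug alone was low and the combination lowest. The fold against CTR was 0.512 (0.498 to 0.527) with IM-DSF, 0.700 (0.683 to 0.717) with DSF and 0.658 (0.642 to 0.674) with IM. The table gives 1 value for the gene, so its splice forms PKM1 and PKM2 were not separated.

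ALDOC, the brain-type aldolase (ENSG00000109107; chromosome 17, 28573115 to 28577264, minus strand), rose in IM-DSF. It had 2.78 FPKM in IM-DSF, 2.34 in DSF, 2.01 in IM and 1.44 in CTR, on 156, 155, 143 and 94 fragments. All 3 treated libraries were above CTR, with folds of 1.93 (1.49 to 2.53) in IM-DSF, 1.63 (1.25 to 2.12) in DSF and 1.40 (1.07 to 1.83) in IM. The 1.5-fold call was lost with trimmed-mean and median-of-ratios scaling. ENO2, the neuronal enolase, had at most 14 fragments in a library.

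Lactate dehydrogenase was made up of LDHA, the form favouring lactate, and LDHB, the form favouring pyruvate. LDHA (ENSG00000134333; chromosome 11, 18394388 to 18408425, plus strand) had 44.8 FPKM in IM-DSF, 53.3 in DSF, 38.3 in IM and 68.9 in CTR. It fell in IM, to 0.556 times CTR (0.542 to 0.570), and in IM-DSF, to 0.651 times CTR (0.634 to 0.668). The IM library was the lowest, and adding DSF to IM gave a level 1.17-fold that of IM (1.14 to 1.20). LDHB had 215 FPKM in IM-DSF, 236 in DSF, 239 in IM and 304 in CTR, folds of 0.706, 0.775 and 0.788 against CTR. LDHB was thus lower in all 3 treated libraries, by a like amount with either drug alone. It was lowest in IM-DSF, at 0.896 times IM (0.875 to 0.918) and 0.911 times DSF (0.889 to 0.933). Pseudogenes of LDHA summed to 7.25 FPKM in IM-DSF, 14.1 in DSF, 11.3 in IM and 18.1 in CTR. With these FPKM added to LDHA, the IM-DSF difference from IM was 0.07 on the log2 scale, against 0.22 without them. That sum adds FPKM and not fragments. LDHA was taken over 16015 bases against a principal transcript of 2416, which lowers its weight in the sum.

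SLC16A1, the transporter MCT1, which carries lactate and pyruvate with a proton across the plasma membrane (ENSG00000155380; chromosome 1, 112911847 to 112957013, minus strand), showed the widest difference of the set on the log2(FPKM + 1) scale, although the rare SLC2A3 had a lower fold in IM (0.210) and HK3 a higher one in IM-DSF against DSF (7.68). It had 4.80 FPKM in IM-DSF, 18.5 in DSF, 15.2 in IM and 21.8 in CTR, on 549, 2505, 2205 and 2906 fragments. The single drugs lay moderately below CTR, with folds of 0.850 (0.806 to 0.897) for DSF and 0.696 (0.658 to 0.736) for IM. Under the combination the gene fell to 0.220 times CTR (0.201 to 0.241), 0.316 times IM (0.288 to 0.348) and 0.259 times DSF (0.236 to 0.284). SLC16A3, the lactate exporter MCT4, was 6.08 FPKM in IM-DSF, 6.58 in DSF, 6.61 in IM and 7.07 in CTR. Its IM-DSF fold was 0.859 (0.800 to 0.923), so the 2 transporters differed by far more than counting error. The antisense transcript SLC16A1-AS1 stayed between 0.502 FPKM (IM-DSF) and 0.726 (CTR), and the SLC16A1 pseudogene was listed at 0 in all 4 libraries.

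The pyruvate dehydrogenase kinases, which switch off the entry of pyruvate into the citric acid cycle, were low. PDK1, the form induced in hypoxia, had 3.60 FPKM in IM-DSF, 3.23 in DSF, 3.10 in IM and 2.97 in CTR, a fold of 1.21 (1.09 to 1.34) in IM-DSF. PDK3 lay between 2.08 FPKM (IM) and 2.45 (CTR). PDK2, the broadly expressed form, was under the filter and stood out in IM alone, with 0.814 FPKM in IM-DSF, 0.936 in DSF, 1.36 in IM and 0.738 in CTR. Its fold was 1.84 (1.46 to 2.33) in IM against CTR and 0.599 (0.471 to 0.757) in IM-DSF against IM.

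**Figure D2:**
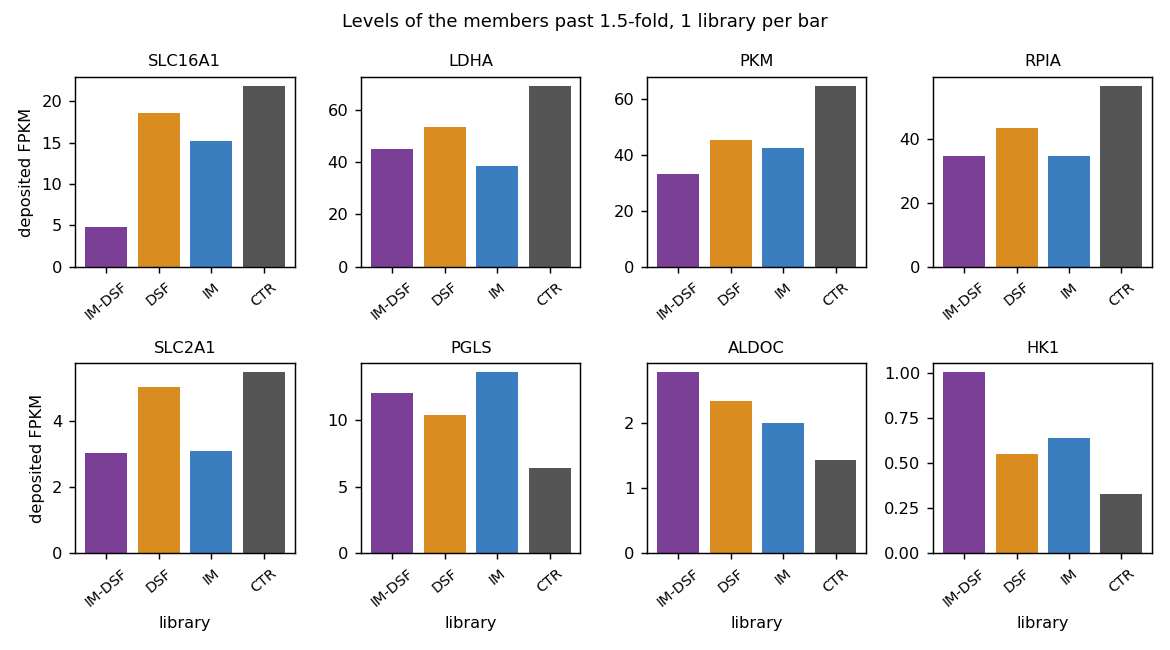
Deposited FPKM, on linear axes from 0, of the 7 members past 1.5-fold in a comparison and of HK1, which passed that size but not the filter on low values, with 1 bar per library in IM-DSF, DSF, IM and CTR. SLC16A1 is at 4.80 FPKM in IM-DSF against 15.2 to 21.8 in the others, LDHA, PKM, RPIA and SLC2A1 are highest in CTR, and PGLS, ALDOC and HK1 are lowest in CTR.

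In the pentose phosphate pathway, PGLS rose, RPIA fell, and none of the other 4 members passed 1.5-fold. PGLS, the lactonase of the oxidative arm (ENSG00000130313; chromosome 19, 17511629 to 17521288, plus strand), had 12.0 FPKM in IM-DSF, 10.4 in DSF, 13.6 in IM and 6.38 in CTR. All 3 treated libraries were above CTR, with folds of 1.88 (1.65 to 2.13) in IM-DSF, 1.63 (1.43 to 1.84) in DSF and 2.12 (1.89 to 2.39) in IM. On the log2(FPKM + 1) scale the IM difference was 0.98, just under the 2-fold rule. The opposite-strand transcript AC010618.3 was at 1.32 FPKM in IM-DSF, 1.67 in DSF, 2.36 in IM and 1.45 in CTR. Whether the counting used strand is not given in the sources used here.

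PGD, the NADPH-making dehydrogenase of the oxidative arm, was the most abundant pentose phosphate member. It had 101 FPKM in IM-DSF, 108 in DSF, 95.3 in IM and 126 in CTR, with a fold of 0.798 (0.772 to 0.826) in IM-DSF. RPIA, which isomerises ribulose 5-phosphate to ribose 5-phosphate (ENSG00000153574; chromosome 2, 88691644 to 88750935, plus strand), fell in both libraries with IM. Its level was 34.8 FPKM in IM-DSF, 43.6 in DSF, 34.6 in IM and 56.6 in CTR. The RPIA fold against CTR was 0.614 (0.563 to 0.670) with IM-DSF, 0.769 (0.713 to 0.831) with DSF and 0.611 (0.564 to 0.662) with IM. RPE, the epimerase that takes the same substrate, did not follow, with 7.01 FPKM in IM-DSF, 6.71 in DSF, 6.74 in IM and 7.11 in CTR. TKT and TALDO1, the transketolase and transaldolase that link the pathway back to glycolysis, were at 0.800 (0.777 to 0.824) and 0.835 (0.796 to 0.875) times CTR in IM-DSF, and neither passed 1.5-fold.

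Isozyme ratios shifted within several enzyme pairs. Of 12 pairs compared, 7 had a ratio in IM-DSF that differed from the ratio in CTR by at least 1.5 times. HK2 over HK1 was 19.6 in IM-DSF and 85.1 in CTR, 0.230 times as high (0.157 to 0.332). SLC16A1 over SLC16A3 was 0.790 in IM-DSF and 3.08 in CTR, 0.256 times as high (0.228 to 0.288). ALDOC over ALDOA was 2.54 times its CTR value (1.96 to 3.29), PFKFB2 over PFKFB3 2.81 times (1.97 to 4.03) and PFKFB4 over PFKFB3 2.43 times (1.72 to 3.45). In the hexokinase, aldolase and PFKFB pairs the isozyme that was rarer in CTR thus gained on the more abundant one. SLC2A1 over SLC2A3 was 2.0 times its CTR value (1.26 to 3.26). With 3 pseudogenes added as FPKM, SLC2A3 was 0.543 in IM-DSF and 0.990 in CTR, against 0.157 and 0.565 without them. SLC2A1 was 3.03 and 5.45 in the same order, so with that sum the shift in this ratio was not seen. ENO2 over ENO1 was 0.499 times its CTR value, with an interval of 0.180 to 1.39 that includes 1.

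Lactate dehydrogenase behaved otherwise. LDHA over LDHB was 0.209 in IM-DSF, 0.226 in DSF, 0.160 in IM and 0.227 in CTR. The ratio was thus shifted in IM, to 0.706 times CTR (0.683 to 0.729), and hardly in DSF, at 0.998 times CTR (0.967 to 1.03). PDK2 over PDK3 was 2.16 times its CTR value in IM (1.59 to 2.94) and 1.19 times in IM-DSF (0.844 to 1.68).

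**Figure D3:**
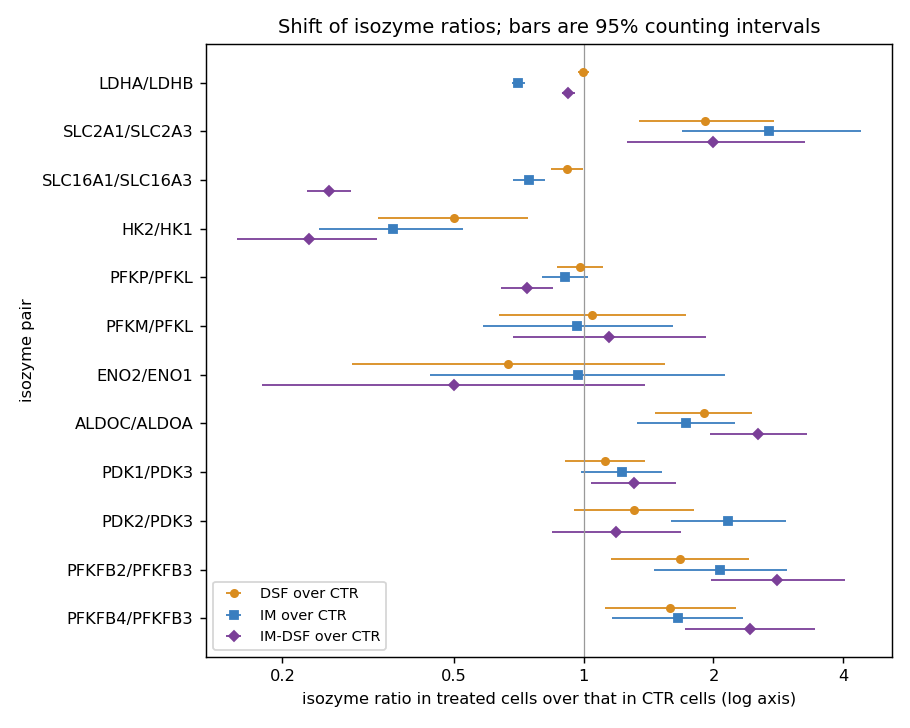
Ratio of the first isozyme to the second in each treated library over the same ratio in CTR, on a log axis, for 12 pairs, with 95% counting intervals as bars and DSF, IM and IM-DSF as separate markers. HK2/HK1 and SLC16A1/SLC16A3 lie left of 1 in IM-DSF, at 0.230 and 0.256, while ALDOC/ALDOA and both PFKFB pairs lie right of 1 in all 3 libraries.

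Each drug could be read with and without the other, in pairs of comparisons that share no library. For DSF, SLC16A1 was 0.316-fold with IM present and 0.850-fold without it, and its departure from additivity on the log2(FPKM + 1) scale was -1.26. LDHA went against this, at 1.17-fold with IM present and 0.774-fold without it (departure 0.58). PGLS was 0.884-fold with IM present and 1.63-fold without it (departure -0.79). PKM was lower both ways, at 0.778-fold (0.755 to 0.802) and 0.700-fold, with a departure of 0.15. For IM, SLC2A1 was 0.605-fold (0.528 to 0.692) with DSF present and 0.565-fold without it, and HK2 was 0.833-fold (0.780 to 0.890) and 0.699-fold. Over the 26 members the median departure was 0.06, and over all genes it was -0.01. With 1 library in each group none of these departures could be tested.

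Levels of different members can be set against each other only per length, and the lengths behind the deposited FPKM were mostly far longer than the transcripts. FPKM values are whole fragments divided by gene length and depth, so the length used for each gene could be solved from its 4 values. It was solved for all 34 members, for PDK3 only up to a multiple. The solved lengths were 1.0 (RPIA) to 8.96 (ALDOA) times the principal transcript in GENCODE 29. LDHA had 16015 bases against a principal transcript of 2416, PKM 16911 against 2717, and TKT 18468 against 3010. The longer the length used, the lower the FPKM for the same fragments.

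Recomputed per kilobase of principal transcript, the order of the members changed while every fold between libraries stayed the same. In CTR, ENO1 led by FPKM (520 against 440 for GAPDH), but GAPDH led per principal transcript (1620 against 1122 for ENO1). LDHA over LDHB in CTR was 0.530 per principal transcript, against 0.227 by FPKM. PDK1 over PDK3 was 0.474 by this length and 1.22 by FPKM, so the order of these 2 kinases depends on the length chosen. SLC16A1 over SLC16A3 stayed above 1 in CTR on both scales, at 1.79 and 3.08, and below 1 in IM-DSF, at 0.459 and 0.790.

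**Figure D4:**
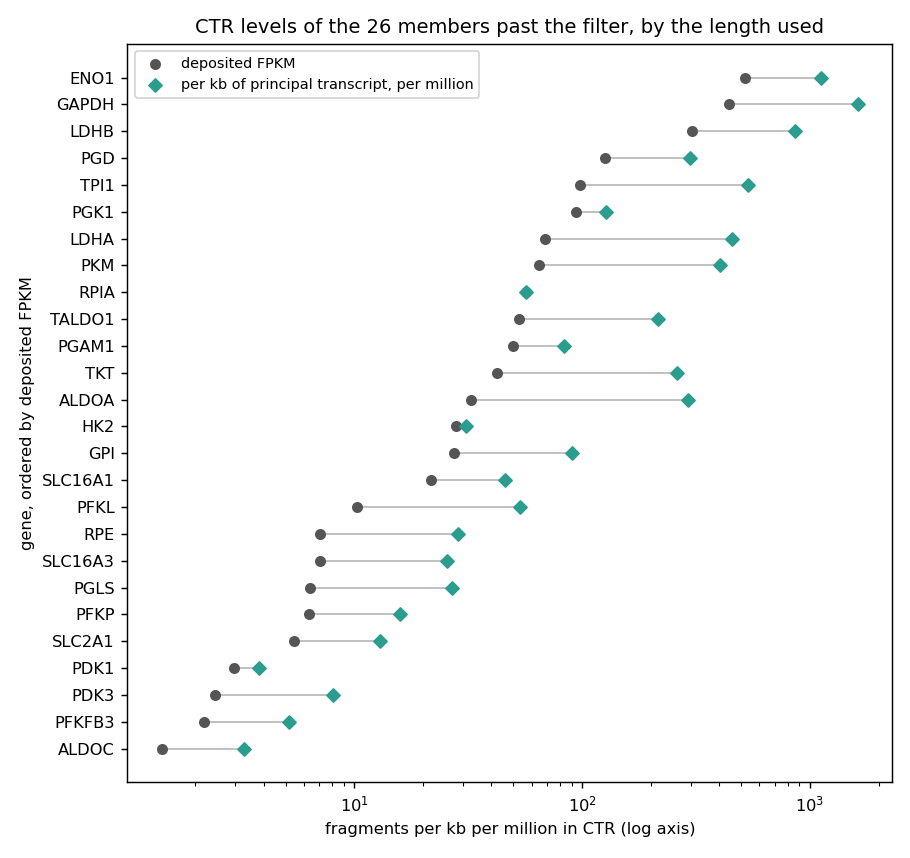
CTR level of the 26 members past the filter on a log axis, as deposited FPKM (circles) and recomputed per kilobase of principal transcript (diamonds), ordered by deposited FPKM. RPIA does not move, and ALDOA moves the most, at 293 against a deposited 32.7.

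Near-identical copies bear on some of these values. By deposited FPKM, the 4 pseudogenes of TPI1 summed to 81.4 in IM-DSF, 102 in DSF, 96.3 in IM and 108 in CTR. TPI1 itself had 71.1, 95.1, 84.1 and 98.4 in the same order. These levels cannot be ranked, since TPI1 was taken over 6701 bases against a principal transcript of 1231. Per kilobase of principal transcript, TPI1 had 387 in IM-DSF and 535 in CTR. The 62 pseudogenes of GAPDH summed to 23.1 FPKM in IM-DSF and 46.1 in CTR. How reads that match several copies were divided is not given in the sources used here. The levels of TPI1, GAPDH, LDHA and SLC2A3 are therefore uncertain. With pseudogene FPKM added, without allowing for the lengths used, 7 members still passed 1.5-fold in IM-DSF against CTR. In IM against CTR, 4 rather than 5 passed, without PKM.

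The other genes of glycolysis lay on both sides of CTR. For each further list, 1.5-fold counts in IM-DSF against CTR stand beside 8.96% higher and 7.31% lower among all genes tested. Of 16 other glycolysis genes 7 passed the filter, with a median of -0.02 in IM-DSF against CTR, 1 past 1.5-fold higher and 2 lower. PGM2L1, which makes glucose 1,6-bisphosphate, rose, with 2.32 FPKM in IM-DSF and 0.999 in CTR. PGM2, a phosphopentomutase, fell, with 29.9 FPKM in IM-DSF and 48.9 in CTR. PGAM4, a retrogene copy of PGAM1, was at 3.99 FPKM in IM-DSF, 9.42 in DSF, 9.76 in IM and 8.65 in CTR, but it lies inside PGK1 on the opposite strand.

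Of 9 other pentose phosphate genes 7 passed the filter, with a median of -0.24 in IM-DSF against CTR, 1 past 1.5-fold higher and 1 lower. H6PD, the glucose 6-phosphate dehydrogenase of the endoplasmic reticulum, rose in IM and in IM-DSF past 2-fold, with 4.59 FPKM in IM-DSF, 3.41 in DSF, 4.89 in IM and 1.26 in CTR. PRPS1, which makes phosphoribosyl pyrophosphate from ribose 5-phosphate, fell, with 13.7 FPKM in IM-DSF, 19.3 in DSF, 15.1 in IM and 21.2 in CTR. H6PD thus lay with PGLS, and PRPS1 with RPIA, in which libraries were high and low.

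Genes of pyruvate entry into the mitochondrion were mostly lower, 8 of 9 past the filter in IM-DSF against CTR, with a median of -0.25. Across all genes tested, 47.9% were lower there. DLAT, the acetyltransferase of pyruvate dehydrogenase, fell at 1.5-fold in all 3 treated libraries, with 14.3 FPKM in IM-DSF, 19.0 in DSF, 14.1 in IM and 29.2 in CTR. No other gene past the filter passed 1.5-fold in IM-DSF. PDK4, the kinase of this family induced by fasting, was under the filter and ran the other way, with 1.72 FPKM in IM-DSF, 0.570 in DSF, 0.814 in IM and 0.409 in CTR, a difference of 0.95 on the log2(FPKM + 1) scale in IM-DSF against CTR.

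Other hexose and monocarboxylate transport genes numbered 15, and 5 of them passed the filter. All 5 were higher in IM-DSF than in CTR, where 5735 of all 11004 genes tested were. Their median was 0.39, and none passed 1.5-fold. BSG, the chaperone that carries MCT1 and MCT4 to the membrane, had 37.2 FPKM in IM-DSF, 32.4 in DSF, 45.4 in IM and 27.0 in CTR, and rose past 1.5-fold in IM. It was therefore not low in IM-DSF, where SLC16A1 was. SLC2A5, the fructose transporter, had 10.5 FPKM in IM-DSF and 7.77 in CTR.

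Of the genes of gluconeogenesis and side branches 11 of 15 passed the filter, with a median of 0.40 in IM-DSF against CTR and 3 past 1.5-fold, all higher. GPD1L, a glycerol 3-phosphate dehydrogenase-like enzyme, had 8.21 FPKM in IM-DSF, 2.64 in DSF, 2.77 in IM and 2.65 in CTR, so it was high in the combination and near CTR with either drug alone. FBP1, which reverses the phosphofructokinase step, had 4.95 FPKM in IM-DSF, 2.36 in DSF, 3.66 in IM and 1.82 in CTR. GPD2, the mitochondrial glycerol 3-phosphate dehydrogenase, was high in both libraries with DSF, at 2.58 FPKM in IM-DSF and 2.08 in DSF, against 0.896 in IM and 0.854 in CTR.

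Of 13 regulators 11 passed the filter, with a median of 0.05 in IM-DSF against CTR, and 1 passed 1.5-fold. That gene was TXNIP, which restrains glucose uptake and is induced by glucose. It was higher past 2-fold in IM-DSF and in IM, with 19.1 FPKM in IM-DSF, 11.6 in DSF, 19.3 in IM and 8.60 in CTR. ESRRA, a nuclear receptor of oxidative metabolism genes, fell past 1.5-fold in IM, with 6.17 FPKM in IM-DSF, 7.70 in DSF, 4.18 in IM and 7.94 in CTR. Of 18 hypoxia-inducible targets outside glycolysis 10 passed the filter, 5 higher and 5 lower in IM-DSF against CTR, with a median of 0.04 and none past 1.5-fold.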

How the data were processed

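The authors deposited 1 table of FPKM values for 50868 genes and 4 libraries, per the file headers. The submitters' processing notes name HISAT2 2.0.4 as a tool and GRCh38.p14 as the build; a stranded mRNA kit is named in the labels' protocols. For the counter, annotation, gene lengths and use of strand, nothing is given in the sources used here. The 34 members, the gene lists and the rules were chosen with earlier results of these data known. Depths were solved from single-exon genes, where over 99.9% of values were whole fragments within 0.01, and lengths for 10932 of 10962 genes; the method was tested on simulated data. Differences are log2(FPKM + 1), which understates changes of low genes, with a filter at a mean of 1 FPKM. Intervals are exact conditional binomial for a fold, and exact conditional or log-scale normal for a ratio of ratios. Values in all 4 libraries were given for members past 1.5-fold in any comparison and for the most abundant member of each role, and up to 4 genes were named per list; per-library values of rarer isozymes and of GAPDH, RPE and TPI1 were added after seeing them. With 1 library per group no test was run. Alternatives were other pseudocounts, filters and scalings, and sums with pseudogenes; ratios per principal transcript were added after seeing the data. Python 3.11.15, numpy 2.4.6, pandas 2.3.3, scipy 1.17.1 and matplotlib 3.10.9 were used.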

Additional observations from a re-analysis of the deposited data

Results flagged for a closer look

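In 5 members the DSF library and the IM-DSF library moved in opposite directions from their own counterparts without DSF. Each moved by more than counting error, which is small for abundant genes. None of these differences could be tested with 1 library per group. How many of all genes meet the same rule was not counted, so no excess can be read from the 5. The values are the effect of DSF with IM minus its effect without IM, on the log2(FPKM + 1) scale. PGLS had the largest, at -0.79, with a DSF fold of 0.884 with IM and 1.63 without it. LDHA was at 0.58, with folds of 1.17 with IM and 0.774 without it. With its pseudogenes added as FPKM, and not as fragments, the IM-DSF difference from IM was 0.07. PFKP was at -0.38, with folds of 0.830 and 1.13 in that order. PGD was at 0.30, with folds of 1.06 and 0.859. ENO1 was at 0.24, with folds of 1.12 and 0.949.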

How the results depend on the processing

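No paired analysis was possible because each group has 1 library. Of 153 recomputed summary values, 138 stayed within 1.5 times (counts) or 0.1 (medians, log2) of the reported one. No called member changed direction in any alternative. The 153 include the count of shifted isozyme ratios, which only the sums with pseudogenes could change. Pseudocount, filter, scaling and transcript length do not enter that count or cancel in it. In IM against CTR, 1 member passed 2-fold with a pseudocount of 0.1 and with TPM, against 0, and it was PGLS. In IM-DSF against CTR, 2 members passed 2-fold with median-of-ratios and with trimmed-mean factors, against 1, PKM being added. At 1.5-fold, 2 members passed in DSF against CTR with a pseudocount of 0.1 and with TPM without mitochondrially encoded genes, against 1, ALDOC being added. In IM-DSF against DSF, 2 passed with a pseudocount of 0.1, TPM, median-of-ratios factors, trimmed-mean factors and TPM without mitochondrially encoded genes, against 1, SLC2A1 being added. The member median in IM-DSF against CTR was -0.42 with trimmed-mean factors, against -0.32. The median departure was 0.16 with TPM without mitochondrially encoded genes, against 0.06. Of the 7 other lists, 5 had a median below 0 in IM-DSF against CTR with median-of-ratios and trimmed-mean factors, against 3. The cause was not tested. Under some scaling, 2 members changed sign in DSF against CTR (GPI and TALDO1), 1 in IM against CTR (PDK1), 6 in IM-DSF against IM, 1 in IM-DSF against DSF (RPE) and 0 in IM-DSF against CTR; all were near 0. Rare isozymes are limited by depth: HK1 rests on 112 fragments in IM-DSF and 43 in CTR.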
